A study of Homo sapiens with 12 samples.

Results

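The 47 genes described here are those that carry a cell through mitosis: CDK1 with its cyclins and phosphatases, the mitotic kinases, the spindle checkpoint, the kinetochore, the spindle motors and the cytokinesis factors, together with the proliferation markers FOXM1, MKI67 and TOP2A. They were chosen by gene symbol, for their known function. Earlier results of these data were known when they and the other gene lists below were chosen. All 47 were found among the 60240 genes of the deposited table, and all 47 were among the 16152 genes kept for testing, which had a value of at least 10 in at least 2 libraries. RNA was sequenced from HL-60, an established human promyelocytic leukaemia line, labelled wild type for genotype. Decitabine, a nucleoside drug that depletes DNA methyltransferases once dividing cells have incorporated it, was given at 100 nM at 0, 24 and 48 h, and DMSO, its vehicle, was given to the control cells. Cells had been seeded at 100000 per mL in 6-well plates in duplicate, and RNA was taken at 6, 72 and 120 h, so the 6 h cells had received the first dose only. The labels list 6 groups of 2 libraries. DMSO at 72 h was analysed here as 1 library, and its other library was not analysed here. No source states that the wells of a pair were independent cultures, and p-values therefore reflect well-to-well spread, which may be technical.

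Entry into mitosis is driven by CDK1 bound to cyclins A and B, which the CDC25 phosphatases switch on. The spindle checkpoint holds back the anaphase-promoting complex, a ubiquitin ligase known as the APC/C, until every kinetochore is attached to microtubules, and CDC20 then directs the complex to securin and cyclin B. Many of these genes are transcribed in the G2 and M phases under the MuvB complex, MYBL2 and FOXM1. Promoters of such genes often hold the CHR, an element through which MuvB acts, and a CCAAT box. RNA of these genes is abundant in dividing leukaemia cells. Messenger levels of such genes are often read as a measure of the share of cycling cells. In bulk RNA, fewer cells in G2 and M cannot be told apart from less RNA per cell.

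Promoter sequences show how much of this arrangement the 47 genes share. RefSeq promoter entries of build GRCh38.p14, each running from 250 bases before the start of transcription to 50 after it, were found for 38 of the 47. AURKA, BIRC5, BUB3, FOXM1, KNL1, RACGAP1, TPX2, TTK and UBE2C had no entry in the table. A gene was counted if any of its entries held a match. The letters TTTGAA, the only form of the CHR searched for, were found on either strand in 27 of the 38, or 71.1%. Of all 27305 genes with an entry, 18.2% had such a match. CCAAT was found on either strand in 32 of the 38, or 84.2%, against 39.7% of all genes with an entry. Both were found in the same entry for 23 of the 38, or 60.5%, against 7.26% of all genes with an entry. In CDCA8 and MKI67 a TTTGAA and a reverse-strand CCAAT share a base, and a match is a description of the sequence and not a bound site.

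Promoters of 4 members are printed to show the layout in PLK1, the only one of the 47 genes that passed the test with all libraries fitted, and in CDC20, CCNB2 and CCNA2 for comparison. Each is written 5′ to 3′ on the strand of its gene, with TTTGAA and CCAAT, or their reverse complements TTCAAA and ATTGG, in capitals. They lie at chr16:23678639-23678938 on the plus strand for PLK1, chr1:43358731-43359030 on the plus strand for CDC20, chr15:59104896-59105195 on the plus strand for CCNB2 and chr4:121823834-121824133 on the minus strand for CCNA2.
PLK1: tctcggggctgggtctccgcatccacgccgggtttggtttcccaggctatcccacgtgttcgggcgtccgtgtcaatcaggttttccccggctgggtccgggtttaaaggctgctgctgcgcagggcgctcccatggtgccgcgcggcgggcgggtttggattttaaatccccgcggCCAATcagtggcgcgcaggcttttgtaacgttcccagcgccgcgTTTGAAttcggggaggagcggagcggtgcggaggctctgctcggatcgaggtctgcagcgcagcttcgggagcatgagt
CDC20: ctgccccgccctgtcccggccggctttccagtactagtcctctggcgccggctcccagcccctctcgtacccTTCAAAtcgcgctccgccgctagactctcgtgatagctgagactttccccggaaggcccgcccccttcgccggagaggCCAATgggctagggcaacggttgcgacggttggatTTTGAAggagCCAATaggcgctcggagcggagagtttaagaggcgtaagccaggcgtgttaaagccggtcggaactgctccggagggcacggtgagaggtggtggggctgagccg
CCNB2: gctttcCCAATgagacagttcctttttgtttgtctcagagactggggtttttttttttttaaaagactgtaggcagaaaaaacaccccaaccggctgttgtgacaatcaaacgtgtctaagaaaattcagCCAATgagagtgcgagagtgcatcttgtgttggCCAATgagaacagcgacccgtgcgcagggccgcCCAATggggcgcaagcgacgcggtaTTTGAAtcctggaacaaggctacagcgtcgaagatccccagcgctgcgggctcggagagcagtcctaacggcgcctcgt
CCNA2: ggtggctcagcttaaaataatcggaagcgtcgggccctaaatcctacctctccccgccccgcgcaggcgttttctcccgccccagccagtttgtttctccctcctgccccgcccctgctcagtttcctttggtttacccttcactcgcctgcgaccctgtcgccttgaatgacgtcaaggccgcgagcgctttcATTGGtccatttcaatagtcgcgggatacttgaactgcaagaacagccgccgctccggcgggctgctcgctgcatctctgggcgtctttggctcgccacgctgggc
In PLK1 and in CCNB2 the TTTGAA begins 29 bases before the start site. PLK1 has 1 CCAAT, beginning 73 bases before the start, whereas CCNB2 has 4, beginning 244, 120, 87 and 54 bases before it. CDC20 has TTTGAA 65 bases before the start and a reverse-strand copy 178 bases before it, with CCAAT at 100 and 55 bases. The CCNA2 window holds CCAAT on the reverse strand, 56 bases before the start, and no TTTGAA. Other spellings of the CHR were not searched for, so a promoter without TTTGAA is not shown to lack a CHR.

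The libraries held an estimated 14427331 to 32908419 counts each. Per the file name the deposited values are counts normalised with DESeq2, and they are called normalised counts below. Too few were whole multiples of 1 estimated count to recover reads. Expression of 9 promyelocyte genes was checked, and their summed normalised counts were between 93326 and 189085 in every library. Such a sum does not identify a cell line. Within the pairs of libraries at 6 and 120 h, the median absolute log2 difference over all genes was 0.190 to 0.261, but between both decitabine libraries of 72 h it was 0.590. For the mitosis genes the same medians were 0.0653 to 0.198 in the other pairs and 0.646 in the decitabine pair of 72 h. The libraries of that pair thus lay far from each other before any comparison was made, which does not tell which was unusual. The mitosis genes together made up 1.02% of all normalised counts in decitabine 72 h replicate 2 and 0.678 to 0.798% in the other 10 libraries. The annotated transcript FP671120.7 took 3.89 to 10.9% of counts in the 120 h libraries and in decitabine 72 h replicate 1 (5.25%), and 0.0424 to 0.794% in the remaining 6, including decitabine 72 h replicate 2. Its part in the results below was not tested.

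**Figure D1:**
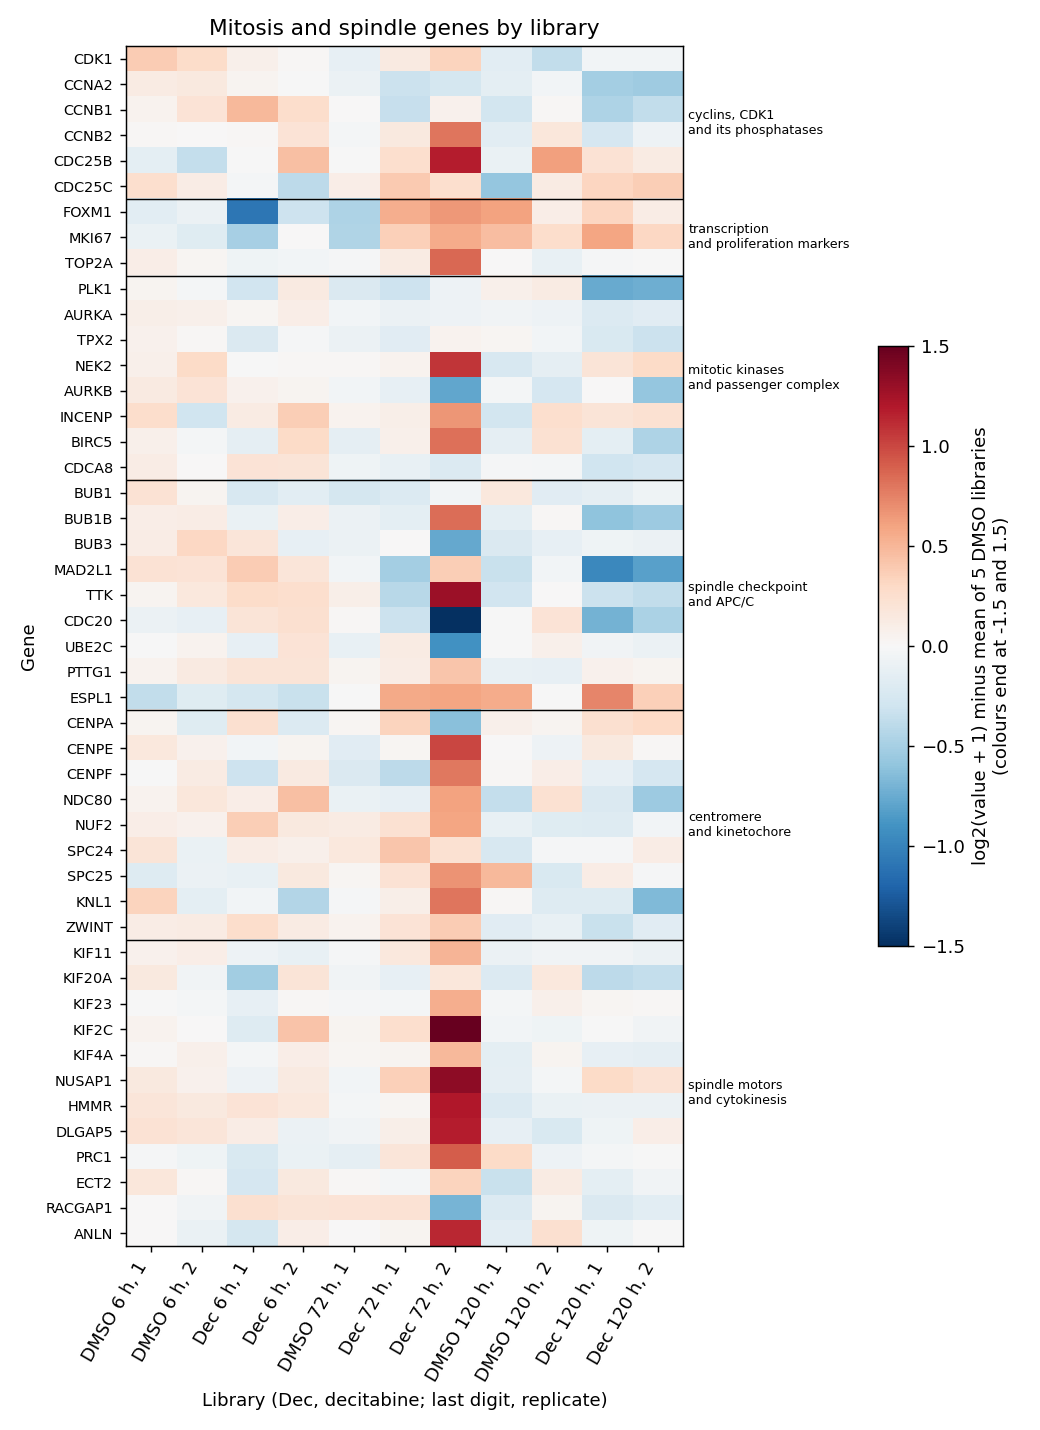
Heat map of the 47 genes (vertical axis, grouped by role) in the 11 libraries (horizontal axis); colour gives log2(value + 1) minus the mean of the 5 DMSO libraries, and colours end at -1.5 and 1.5. Decitabine 72 h replicate 2 has the deepest red and blue cells, and PLK1, MAD2L1, BUB1B, CDC20 and CCNA2 are blue in both decitabine libraries of 120 h.

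At 6 h after the first dose of decitabine, none of the 47 genes passed the test, and their log2 fold changes were small. The median of the 47 was -0.03, against -0.01 over all 16152 genes, and 20 of the 47 were above 0, against 48.5% of all genes. No gene of the whole table was called at this time (limma, Benjamini-Hochberg adjusted p under 0.05, 0% called). At an unadjusted p under 0.05 there were 0 of the 47 against 3.35% of all genes. These p-values rest on a spread shared by all groups, including the decitabine pair of 72 h, and the 0 of the 47 depended on that pair. For 40 of the 47 the 95% interval of the difference lay within a 2-fold change in either direction, against 50.3% of all genes. The median half-width of the interval was 0.60 for the 47 and 0.77 over all genes. Intervals of the 47 were also narrower at 72 and 120 h, so such shares do not measure small changes alone. Fold changes here and below are on the log2(value + 1) scale, from limma fitted to all genes and all 11 libraries, and intervals are unadjusted.

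CDK1, the kinase that starts mitosis, had normalised counts of 3646 and 3517 under decitabine at 6 h and of 4500 and 4179 in DMSO. The groups did not overlap, but the difference of -0.28 ± 0.15 (log2, SE) did not pass the test. With decitabine 72 h replicate 2 left out of the fit, the same difference had an SE of 0.10. Decitabine libraries lay above DMSO at 6 h for 10 of the 47 genes, against 18.2% of all genes, and below it for 14, against 20.8%. FOXM1, a transcription factor of G2 and M genes, had the lowest log2 fold change, -0.57 ± 0.27, from counts of 186 and 318 under decitabine and 354 and 373 in DMSO. CDC25B, a phosphatase that activates CDK1, had the highest, 0.47 ± 0.35, from 302 and 418 against 275 and 237. Neither passed the test (limma, adjusted p = 1 for both).

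At 72 h the 47 genes again gave no call, while 2.19% of all genes were called, and both decitabine libraries differed from each other more than the replicates of any other group. The median log2 fold change was 0.32, against 0.09 over all genes, and 36 of the 47 were above 0, against 55.5% of all genes. The median difference of all genes moved by -0.13 under quantile normalisation and by -0.16 when libraries were scaled to equal totals without the 20 highest genes, and the median of the 47 relative to that of all genes was 0.23 as deposited, 0.20 and 0.22. Unadjusted p was under 0.05 for 4 of the 47, against 18.1% of all genes: MKI67, FOXM1, NUSAP1 and PRC1. The lone DMSO library of 72 h was taken to have the spread of the other groups, and 20 of the 47 intervals lay within a 2-fold change, against 25.2% of all genes.

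Set against that DMSO library one at a time, decitabine replicate 1 resembled it and replicate 2 did not. In replicate 1 the 47 genes had a median log2 difference of 0.07, against 0.06 over all genes, and 43 of the 47 were within 0.5 of the DMSO library, against 59.2% of all genes. In replicate 2 the median was 0.53, against 0.14 over all genes, and 17 of the 47 were within 0.5, against 38.9%. Replicate 2 was above every one of the other 10 libraries for 27 of the 47 genes, where 26% of all genes were, and below every one for 6, where 20.7% were. It exceeded replicate 1 by over 1.5-fold for 18 of the 47, against 25.5% of all genes, and was lower by over 1.5-fold for 6, against 24.9%.

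**Figure D2:**
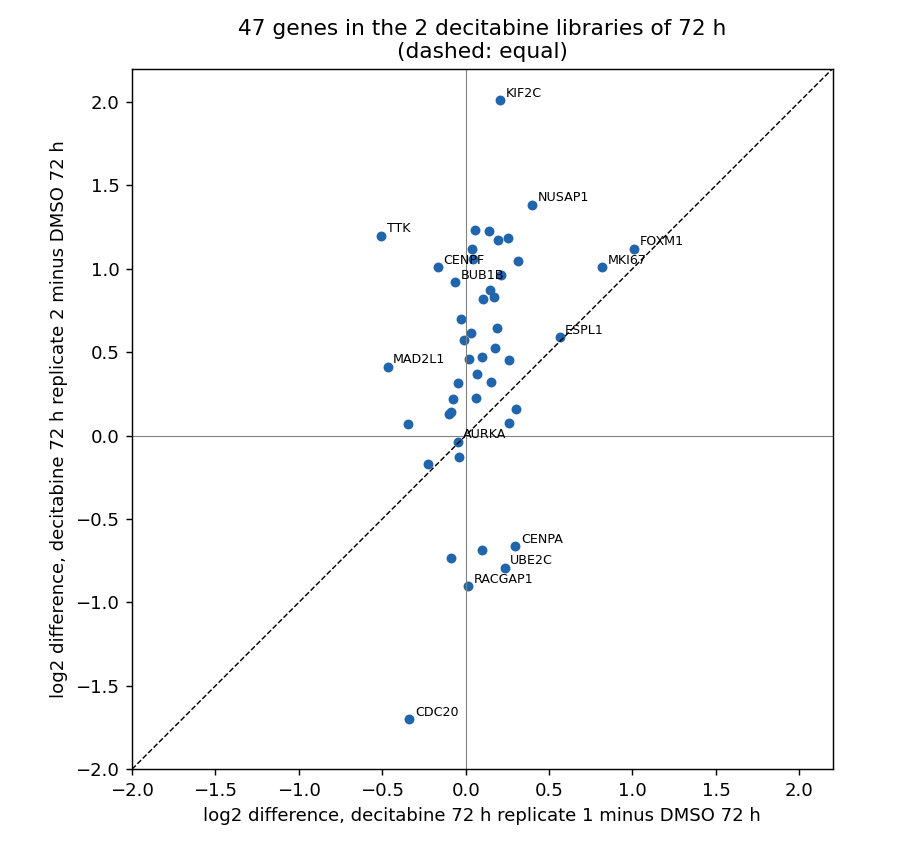
Log2 difference of each of the 47 genes from the DMSO 72 h library, in decitabine 72 h replicate 1 (horizontal axis) and replicate 2 (vertical axis); each point is a gene and the dashed line marks equal differences. Most points lie near 0 on the horizontal axis and spread from -1.70 (CDC20) to 2.01 (KIF2C) on the vertical axis, whereas FOXM1, MKI67 and ESPL1 lie near the dashed line.

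Spindle motors and cytokinesis genes were among those highest in replicate 2. KIF2C, a kinesin that takes microtubules apart at the centromere, had 5097 normalised counts in decitabine 72 h replicate 2, 1459 in replicate 1 and 1264 in the DMSO library of that time. In the 8 libraries of 6 and 120 h it lay between 1075 and 1662, so the value of 5097 was reached in 1 library only. TTK, the kinase at the head of the spindle checkpoint, had 7236, 2223 and 3157 in the same order, and CENPF, a large kinetochore protein, had 15975, 7064 and 7935.

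The cytokinesis scaffold ANLN and the microtubule-binding genes NUSAP1, HMMR and DLGAP5 followed KIF2C in this. ANLN was at 7379 in replicate 2 against 3483 in replicate 1 and 3397 in DMSO, NUSAP1 at 4517 against 2282 and 1731, HMMR at 9328 against 4131 and 3973, and DLGAP5 at 5363 against 2519 and 2290. In each of the 4 genes replicate 2 was above all other libraries, and replicate 1 was close to DMSO except for NUSAP1, where it too was higher. TOP2A, the topoisomerase that untangles sister chromatids, stood at 24428 in replicate 2, and between 12508 and 14722 in the other 10 libraries. PRC1, which bundles the midzone microtubules, stood at 2929 against 1328 to 1899 in those 10 libraries.

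CDC20, UBE2C, CENPA, RACGAP1, BUB3 and AURKB went the other way and were lowest of all libraries in decitabine 72 h replicate 2. CDC20, the activator of the APC/C, had 202 normalised counts there, 521 in replicate 1 and 658 in DMSO at 72 h. UBE2C, the ubiquitin-conjugating enzyme of that complex, had 503, 1026 and 872. CENPA, the histone H3 variant of centromeres, had 160, 313 and 254, AURKB, the kinase of the chromosomal passenger complex, had 228, 357 and 379, and BUB3, a checkpoint protein, had 1197, 2056 and 1923. Members of the same complex thus lay on opposite sides in this library: BUB1B, the partner of BUB3 in the checkpoint, was at 6082 against 3086 in replicate 1, and BIRC5, the partner of AURKB, was at 2946 against 1754.

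FOXM1, MKI67 and ESPL1 were the members above DMSO by over 0.5 on the log2 scale in both decitabine libraries of 72 h. FOXM1 had 578 and 623 normalised counts, against 286 in the DMSO library. MKI67, which encodes the Ki-67 antigen coating mitotic chromosomes, had 8024 and 9170, against 4554. ESPL1, the separase that cuts cohesin, had 461 and 470, against 312. Their log2 fold changes of 1.06 ± 0.33, 0.91 ± 0.25 and 0.58 ± 0.28 did not pass the test (limma, adjusted p = 0.149, 0.109 and 0.320). In the DMSO libraries of 120 h, replicate 1 was within or next to these decitabine values of 72 h and replicate 2 was below them, with FOXM1 at 600 and 424, MKI67 at 8627 and 7524 and ESPL1 at 460 and 310.

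Both decitabine libraries lay above the lone DMSO library at 72 h for 27 of the 47 genes, against 37.5% of all genes, and below it for 5, against 27.6%. The 5 were AURKA, AURKB, CCNA2, CDC20 and CDCA8. With all 5 DMSO libraries as the control instead, 3 of the 47 were called, KIF2C and NUSAP1 as higher and CDC20 as lower, against 18.1% of all genes. Without decitabine replicate 1, 23 of the 47 were called, against 29.7% of all genes, and without replicate 2 none was, against 4.55%. The median of the 47 was 0.53 and 0.07 in turn.

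At 120 h, 1 of the 47 genes passed the test, and it was PLK1, the polo-like kinase that acts in mitotic entry, spindle assembly and cytokinesis, which fell. At this time 15.9% of all 16152 genes were called, 9.91% as higher and 6% as lower. The median log2 fold change of the 47 was -0.08, against 0.07 over all genes, and 18 of the 47 were above 0, against 54.1%. Relative to all genes the median was -0.15 as deposited and with equal totals, but 0.04 under quantile normalisation, which moved the median of all genes by -0.17, so no direction for the group holds under each scaling. The interval lay within a 2-fold change for 37 of the 47, against 30.7% of all genes. Unadjusted p was under 0.05 for 3 of them, PLK1, CCNA2 and MAD2L1, against 30.2% of all genes. Over all genes there were 1601 higher and 969 lower calls, which became 1513 and 1465 under quantile normalisation.

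**Figure D3:**
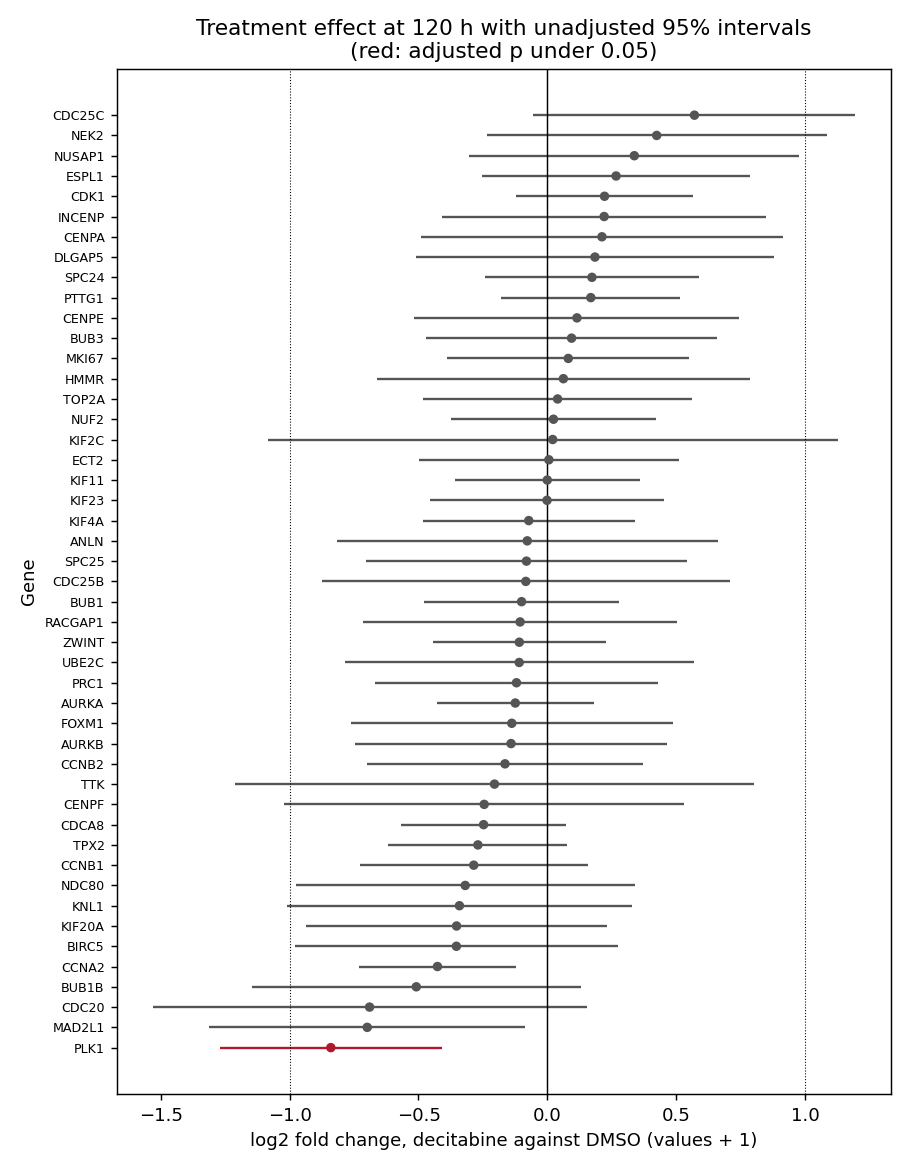
Log2 fold change of each of the 47 genes at 120 h, decitabine against DMSO (horizontal axis, values + 1), with unadjusted 95% intervals; dotted lines mark a 2-fold change and red marks an adjusted p under 0.05. PLK1 at -0.84 is the only red point, and most intervals hold 0 and stay inside the dotted lines.

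PLK1 had 269 and 273 normalised counts under decitabine at 120 h, against 477 and 495 in DMSO. The difference was -0.84 ± 0.19 on the log2 scale, or 0.559 of the DMSO level (limma, adjusted p = 0.0192). In the other 7 libraries PLK1 lay between 365 (decitabine 72 h replicate 1) and 499 (decitabine 6 h replicate 2), so both decitabine libraries of 120 h were below every other library. The PLK1 call was kept in 18 of 22 alternative settings and lost when any 1 of the 4 libraries of 120 h was left out, with adjusted p between 0.0832 and 0.119 (limma) and log2 fold changes between -0.87 and -0.81. The difference between the effect at 120 h and that at 6 h was -0.76 ± 0.27 (adjusted p = 0.143) and between 120 and 72 h -0.86 ± 0.30 (adjusted p = 0.690), so a change of the PLK1 effect with time did not pass the test.

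MAD2L1, CDC20, BUB1B and CCNA2 were the next lowest, and none of them passed the test with all libraries fitted. MAD2L1, which blocks CDC20 in the checkpoint, had 1003 and 1118 normalised counts under decitabine at 120 h against 1551 and 1907 in DMSO, a log2 fold change of -0.70 ± 0.27 (limma, adjusted p = 0.120). CDC20 had 399 and 468 against 650 and 749, or -0.69 ± 0.37 (adjusted p = 0.255). BUB1B, the BubR1 kinase, had 2246 and 2339 against 3071 and 3464, or -0.51 ± 0.28 (adjusted p = 0.268). In all of these the decitabine libraries lay below the DMSO libraries without overlap.

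Cyclin A2, encoded by CCNA2, had 2401 and 2374 normalised counts under decitabine at 120 h against 3102 and 3320 in DMSO, or -0.43 ± 0.13 (limma, adjusted p = 0.0656). Its values at 72 h, 2747 and 2857 against 3214, were also below DMSO, and at 6 h they were 3534 and 3397 against 3730 and 3802. Decitabine was below DMSO at each of the 3 times for CCNA2, by -0.12 ± 0.13 and -0.20 ± 0.16 at 6 and 72 h, where neither difference passed the test.

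These calls depended on the pair that stood apart, since all groups share one estimate of the spread. With decitabine 72 h replicate 2 left out, 7 of the 47 genes were called at 120 h with the same fold changes, 5 lower and 2 higher. The lower ones were PLK1, CDC20, MAD2L1, CCNA2 and BUB1B (limma, adjusted p = 0.00547, 0.00524, 0.00566, 0.00626 and 0.00808). The higher ones were NEK2, a centrosome kinase, with 718 and 765 normalised counts against 534 and 571 in DMSO (0.42 ± 0.11, adjusted p = 0.0246), and NUSAP1, with 2171 and 2074 against 1619 and 1742 (0.34 ± 0.10, adjusted p = 0.0404). The same 7 were called without decitabine 72 h replicate 1 and without both decitabine libraries of 72 h. Calls over all genes rose as well, from 2570 to 4934, or 31% of those tested, without replicate 2.

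**Figure D4:**
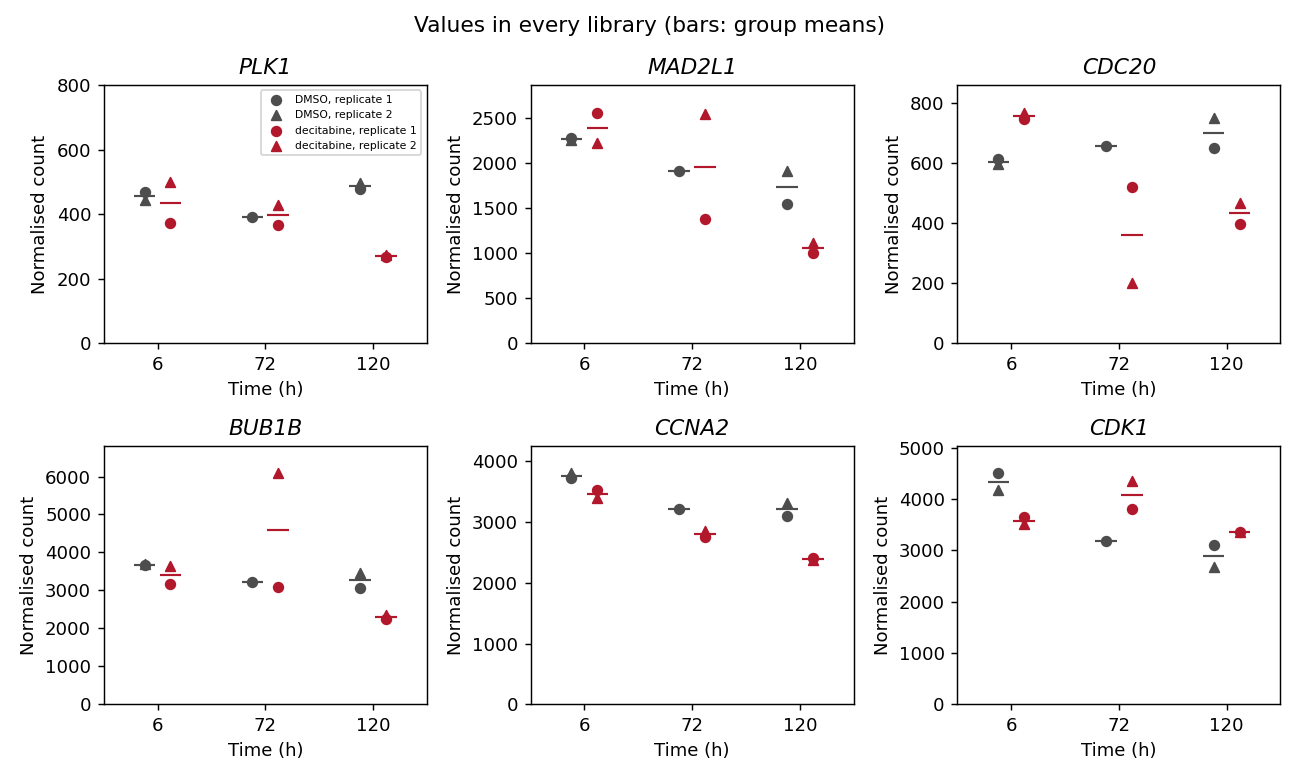
Normalised counts (vertical axes, starting at 0) of PLK1, MAD2L1, CDC20, BUB1B, CCNA2 and CDK1 at 6, 72 and 120 h; each point is a library, circles and triangles are replicates 1 and 2, and bars are group means. For the first 5 genes both decitabine points at 120 h lie below both DMSO points, for CDK1 they lie above, and replicate 2 of decitabine at 72 h is far from replicate 1 for BUB1B, MAD2L1 and CDC20.

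Among CDK1 and its other regulators, none passed the test at 120 h. CDK1 itself had 3354 and 3359 normalised counts under decitabine at 120 h against 3099 and 2674 in DMSO, or 0.22 ± 0.15 (limma, adjusted p = 0.375), a higher level in both libraries. Cyclin B1, encoded by CCNB1, had 1410 and 1513 against 1605 and 1975, or -0.29 ± 0.19 (adjusted p = 0.373), lower in both libraries without overlap. CCNB2 had 539 and 611 against 574 and 721, which overlapped. CDC25C, a phosphatase that activates CDK1, had the highest fold change of the 47, 0.57 ± 0.27 (adjusted p = 0.203), from 116 and 120 against 61.8 and 101. Of the 6 genes of this role, 2 had a positive log2 fold change and the median was -0.12.

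Among the mitotic kinases, only PLK1 passed the test. AURKA, the centrosome kinase, was at 1117 and 1144 normalised counts under decitabine at 120 h and at 1241 and 1223 in DMSO, or -0.12 ± 0.13. Its activator on the spindle, TPX2, was at 2478 and 2310 against 2952 and 2818, or -0.27 ± 0.15. Both lay below DMSO without overlap, and the intervals, -0.43 to 0.18 for AURKA and -0.62 to 0.08 for TPX2, hold 0. AURKB was at 391 and 262 against 382 and 326, and BIRC5, also known as survivin, at 1495 and 1202 against 1510 and 1942. AURKB overlapped between the groups, and neither it nor BIRC5 (-0.35 ± 0.27) passed the test. The median of the 8 kinase and passenger complex genes was -0.19, and 2 of them, NEK2 and INCENP, were above 0.

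In the checkpoint and APC/C group, the lower values of MAD2L1, CDC20 and BUB1B stood beside members with little difference. BUB1, the kinase that recruits other checkpoint proteins, was at 2665 and 2787 normalised counts under decitabine at 120 h against 3276 and 2604 in DMSO, which overlapped. UBE2C was at 906 and 885 against 935 and 998 (-0.11 ± 0.30), and PTTG1, the securin that holds separase inactive, at 1378 and 1355 against 1221 and 1212 (0.17 ± 0.15). PTTG1 lay above DMSO in both libraries and UBE2C below, both without passing the test. The median of the 9 genes was -0.11, with 3 above 0. PTTG1 has a near-identical copy, PTTG2, and KIF4A has KIF4B, so their counts are uncertain. Of 12 such copies and pseudogenes among the listed genes, 2 passed the filter and neither was called.

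Centromere and kinetochore genes showed the same spread about 0. NDC80, the outer kinetochore protein that grips microtubules, had 2292 and 1827 normalised counts under decitabine at 120 h against 2085 and 3125 in DMSO (-0.32 ± 0.29). CENPA had 293 and 306 against 261 and 256 (0.21 ± 0.31). NDC80 overlapped between the groups and CENPA was higher in both decitabine libraries, and neither passed the test. The 9 genes had a median of -0.08 and 4 were above 0.

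Motor and cytokinesis genes had the median closest to 0 of the 6 roles at 120 h, 0.00 over 12 genes and 5 above 0. KIF11, the motor that separates the spindle poles, had 4023 and 3917 normalised counts under decitabine against 3927 and 4016 in DMSO, and its interval ran from -0.36 to 0.36. KIF23, a motor of the midzone, had 1230 and 1223 against 1180 and 1277. KIF2C, so far from the others at 72 h, had 1221 and 1189 against 1198 and 1178 at 120 h, and PRC1 had 1525 and 1555 against 1899 and 1474. In all 4 genes the groups overlapped.

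The proliferation markers gave no call at 120 h either. MKI67 had 9373 and 7749 normalised counts under decitabine against 8627 and 7524 in DMSO (0.08 ± 0.21, interval -0.39 to 0.55). TOP2A had 13280 and 13467 against 13534 and 12508 (0.04 ± 0.23). FOXM1 had 494 and 426 against 600 and 424 (-0.14 ± 0.27). All 3 overlapped between the groups. Without overlap, decitabine was below DMSO at 120 h for 14 of the 47 genes, against 30.6% of all genes, and above it for 11, against 36.1%.

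From 72 to 120 h under decitabine, none of the 47 genes was called, against 0.13% of all genes. The median log2 difference was -0.39, against 0.03 over all genes, and both libraries of 120 h were below both of 72 h for 30 of the 47 (21.4% of all genes) and above them for 0 (23.3%). Unadjusted p was under 0.05 for 11 of the 47, against 16.4% of all genes, with ZWINT, a kinetochore linker (-0.55 ± 0.15), lowest in p (limma, adjusted p = 0.195). Without decitabine 72 h replicate 1, 31 of the 47 were called, against 32.5% of all genes, and without replicate 2 none was, against 0.22%. The median of the 47 was -0.58 and -0.16 in turn, so the comparison turned on which decitabine library of 72 h was kept. The effect of treatment at 120 h against that at 72 h gave 0 of 47 calls and 0% of all genes (limma), with unadjusted p under 0.05 for 3 of the 47 against 6.33% of all genes. That at 120 h against 6 h gave 0 of 47 calls, against 5.9% of all genes, and 3 at an unadjusted p under 0.05, against 21.5%. With decitabine 72 h replicate 1 or 2 left out, 5 of the 47 were called in the latter, against 18.7 and 18.9% of all genes.

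Time in DMSO alone was compared to give the background of the culture. None of the 47 was called between DMSO at 120 and at 6 h, and 0% of all genes were (limma), with unadjusted p under 0.05 for 3 of the 47 against 5.36% of all genes. At 120 h both DMSO libraries were below both of 6 h for 21 of the 47, against 23.3% of all genes, and above them for 7, against 20.4%. CDK1 was lower by -0.59 ± 0.15 (limma, adjusted p = 0.753), from 4500 and 4179 to 3099 and 2674 normalised counts, and it was also lower in the DMSO library of 72 h, at 3188. CDK1 under decitabine at 120 h, at 3354 and 3359, thus lay between its DMSO levels of 6 and 120 h. DMSO at 72 h against 6 h gave 0 of 47 calls and 0% of all genes, with unadjusted p under 0.05 for 1 of the 47 against 2.82%.

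Leaving out decitabine 72 h replicate 2, the ratio of the highest to the lowest of the other 10 libraries had a median of 1.48 over the 47 genes and was under 1.5 for 24 of them. It was 1.16 for KIF23, 1.18 for TOP2A, 1.19 for KIF4A and 1.21 for KIF11, the 4 smallest. The 4 largest were 3.22 for FOXM1, 2.55 for MAD2L1, 2.15 for ESPL1 and 2.12 for MKI67. FOXM1, MKI67 and ESPL1 had their lowest values at 6 h, in decitabine replicate 1 for the first pair and in DMSO replicate 1 for ESPL1, whereas MAD2L1 had its lowest under decitabine at 120 h.

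Other genes of mitosis were few among the calls at 120 h, where 15.9% of all genes were called. Of 22 cohesin and condensin genes, 32 further centromere and kinetochore genes and 38 further spindle, centrosome and cytokinesis genes tested, none was called (limma), with unadjusted p under 0.05 for 2, 3 and 6, and their medians were -0.10, -0.21 and -0.09. Without decitabine 72 h replicate 2, 4, 7 and 6 of them were called, in both directions in each list, against 31% of all genes. Of 21 APC/C genes, ANAPC1, its largest subunit, fell (-0.98 ± 0.22, limma, adjusted p = 0.0179) and CDC14A, a phosphatase that opposes CDK1, rose (0.81 ± 0.19, adjusted p = 0.0212), with a median of -0.17. Of 20 brakes on CDK1 and kinases and phosphatases of mitotic entry, the phosphatase gene CDC25A fell (-0.55 ± 0.15, adjusted p = 0.0405) and the rest gave no call, with a median of -0.07. No gene of either list was called when any 1 of the 4 libraries of 120 h was left out, and without decitabine 72 h replicate 2 the lower calls were 3 and 4. CDC25A was also not called without any 1 of the 6 h libraries or with equal totals.

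Upstream of the mitosis genes, transcription factors were called at about the share of all genes, in both directions, and inhibitors only as higher. At 120 h, 9.91% of all genes were called higher and 6% lower. Of 20 genes of the MuvB and DREAM complexes, MYBL2 and the E2F factors, E2F2 rose (1.23 ± 0.25, limma, adjusted p = 0.0137). E2F5 (-2.10 ± 0.41, adjusted p = 0.0118) and TFDP1 (-0.85 ± 0.20, adjusted p = 0.0207) fell, and the median of the list was -0.05. TFDP1 was not called with equal totals or with quantile normalisation, and under the latter MYBL2 was called lower. Without decitabine 72 h replicate 2 there were 2 higher and 3 lower calls, and without one of the 120 h libraries 0 or 1 in all. Of 7 inhibitors of cyclin-dependent kinases tested, 3 rose, none fell and the median was 0.42. CDKN2B, encoding p15, had 250 and 231 normalised counts under decitabine at 120 h and 28.7 and 13.6 in DMSO (3.54 ± 0.39, adjusted p = 0.000882). CDKN1A, encoding p21, had 98.7 and 93.1 against 13.93 and 11.03 (2.85 ± 0.44, adjusted p = 0.00400), and CDKN2D, encoding p19, had 199 and 205 against 58.0 and 50.1 (1.89 ± 0.24, adjusted p = 0.00165). In these 3 inhibitors all decitabine values at 120 h were above those of every DMSO library, and all 3 calls were kept with each library left out in turn.

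DNA replication genes, which act in S phase, were lower on balance at 120 h. Of 36 tested at 120 h, 6 fell, none rose and the median was -0.46, against 6% of all genes called lower and a median of 0.07. The 6 were MCM2 of the replicative helicase (-0.80 ± 0.20), GINS1 (-0.76 ± 0.16), the clamp loader genes RFC3 (-0.68 ± 0.15) and RFC5 (-0.55 ± 0.14), UHRF1, which reads hemimethylated DNA (-0.64 ± 0.16), and POLD1, a DNA polymerase (-0.59 ± 0.16), with limma adjusted p between 0.0163 and 0.0365. Without decitabine 72 h replicate 2 there were 19 lower calls, against 31% of all genes called in either direction, without 1 of the 6 h libraries 2, and without 1 of the 120 h libraries 0 or 1, while the median stayed between -0.50 and -0.37. The difference between the replication and mitosis medians was not tested. At 72 h none of the genes of these lists was called, against 2.19% of all genes. Their medians were 0.40 for cohesin and condensin, 0.36 for the further kinetochore genes and 0.27 for the further spindle genes. The replication median was 0.09, as was that of all genes. These medians include decitabine 72 h replicate 2, and are not given without it.

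**Figure D5:**
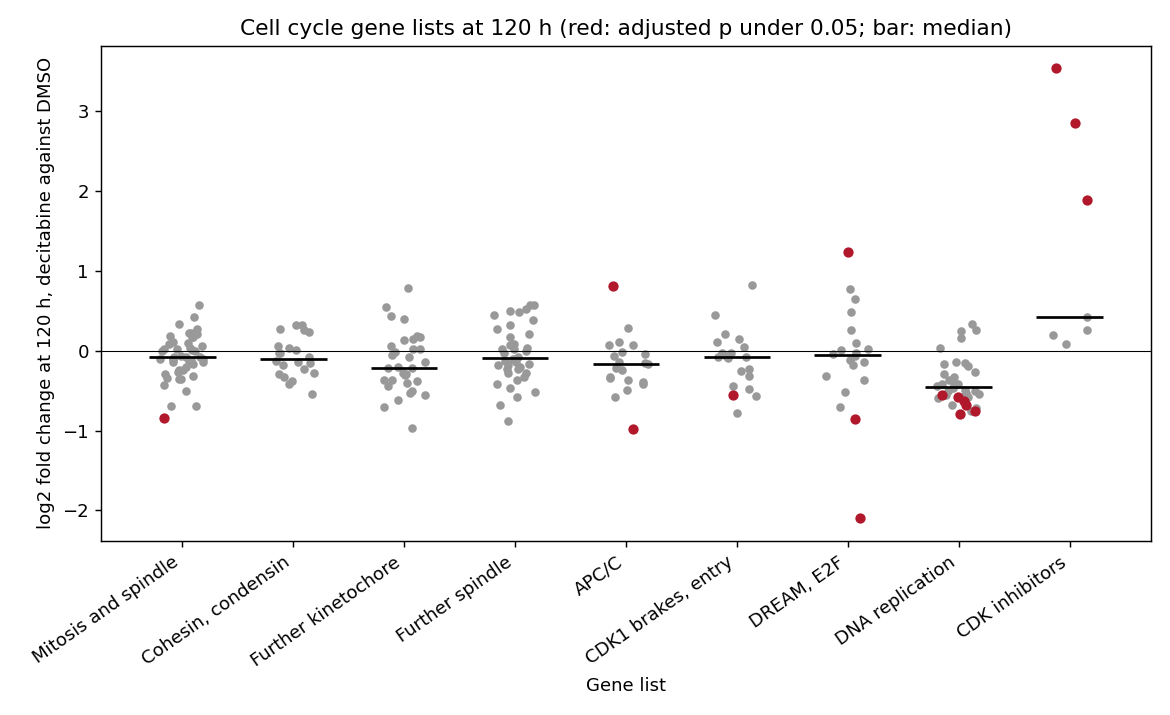
Log2 fold change at 120 h, decitabine against DMSO (vertical axis), for the 47 mitosis and spindle genes and 8 further cell cycle lists (horizontal axis); each point is a gene, placed sideways at random within its list, red marks an adjusted p under 0.05 and bars are medians. The medians of the mitosis, cohesin, kinetochore and spindle lists are -0.08, -0.10, -0.21 and -0.09, and that of the replication list is -0.46. The 3 red points of the inhibitor list lie at 1.89 and above.

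Markers of maturing blood cells moved at the same time points, and their part in the results above was not tested. All 8 eosinophil genes were called higher at 120 h, with summed normalised counts of 122549 to 132993 under decitabine and 14469 to 15749 in DMSO, and 6 of 12 late neutrophil genes were called higher and 1 lower, with sums of 38665 to 41256 against 7472 to 7861. Of 7 monocyte genes tested, 4 were called higher and 1 lower, with sums of 1046 to 1088 against 459 to 482. With equal totals 3 monocyte genes were called higher and 0 lower, and with quantile normalisation 3 and 1. Of 9 promyelocyte genes, 1 was called higher, with sums of 117163 to 127313 against 133480 to 189085. The monocyte and promyelocyte calls also depended on which libraries of 120 h were fitted. Lymphoid genes gave 2 higher calls of 3 tested, with sums of 366 to 441 against 76.2 to 78.2. Epithelial and stromal genes gave 1 of 3, which was PECAM1, with sums of 1824 to 1895 against 461 to 521. Erythroid genes stayed between sums of 11.6 and 24.2 in all libraries, with ALAS2, the haem synthesis enzyme of red cells, listed at 0 in each. Promoters of the mitosis genes with TTTGAA had a median log2 fold change of 0.00 at 120 h and those without it of -0.08, and this difference was not tested.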

How the data were processed

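The authors deposited one table of normalised expression, a signal of counts divided by a factor per library; its DESeq2 normalisation is per the file name, and the values are never negative. Per the submitters' processing notes, hg38, Salmon 1.2.1, STAR, featureCounts, DESeq2 and limma were used, with no role or order stated; which annotation was used was not given in these sources. Per the labels' protocols, RNA was depleted with RiboZero Gold, and stranded ScriptSeq v2 libraries were read as single-end 50 bp reads. Per the file headers 12 libraries are named, but each gene has 11 values. Library names were aligned by taking the symbol as the first named column, which leaves DMSO 72 h replicate 2 without values. Mean differences within and between groups were then 0.299 and 0.439, against 0.429 and 0.426 for names aligned from the identifier, and every result rests on this reading.

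Depth was estimated by taking the commonest low value of each library, 0.407 to 0.961, as 1 count. Too few values were whole multiples of that value to recover reads, so the depths are rough and count models were not used. Values were taken as log2(value + 1), a gene needed a value of 10 or more in 2 or more libraries, and 1 mean per group was fitted to 11 libraries with limma 3.58.1 (eBayes with a trend) in R 4.3.3, with 5 residual degrees of freedom. This replaces the 12-library design. Benjamini-Hochberg adjustment ran over all 16152 genes, and calls were made at an adjusted p under 0.05. The fit was tested on simulated data. DMSO at 72 h is 1 library, so it has no SD.

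The members, their roles and all other lists were chosen with earlier results of these data known. All members may be named, with values in every library for those named by rule (the best known members, called members and those called against the majority); of other lists, up to 6 genes with the smallest adjusted p at 120 h and up to 2 that went the other way. The marker lists were of promyelocytes, eosinophils, late neutrophils, monocytes, erythroid, lymphoid, and epithelial and stromal cells. NEK2, NUSAP1, KIF2C, TTK, CENPF, ANLN, HMMR, DLGAP5, UBE2C, BUB3 and ESPL1 were given library values after these were seen. Alternatives changed the pseudocount (0.5 and 5), the filter (none, or a mean of at least 50), the scaling, the trend, library weights, the libraries fitted and the replicate block, or left out each library. One was added after seeing the data: both decitabine libraries of 72 h left out.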

Additional observations from a re-analysis of the deposited data

How the results depend on the processing

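The members called at 120 h in any setting named above, and CDC20, FOXM1, KIF2C, MKI67 and NUSAP1 at 72 h, kept their direction in every setting run, whereas 17 of the 47 near 0 at 120 h changed sign in at least 1. Counts of calls moved by over 1.5 times in the settings given here, and the cause was not tested beyond the libraries named. Members called at 120 h (1) became 2 with quantile normalisation, 5 with sample weights, 6 with the libraries of the comparison alone and 7 with both decitabine libraries of 72 h left out, an alternative chosen after seeing the data, and ranged from 0 to 7 with each library left out in turn. Those at 72 h (0) became 3 with all DMSO libraries as control and ranged from 0 to 23. For the effect at 120 h against that at 6 h (0) they became 4 with sample weights, 5 with the libraries of the comparison alone and 5 with both decitabine libraries of 72 h left out, and ranged from 0 to 5. For the effect at 120 h against that at 72 h they ranged from 0 to 19, and for decitabine at 120 against 72 h from 0 to 31, in each case with the highest count without decitabine 72 h replicate 1. Over all genes, sample weights, the libraries of the comparison alone and both decitabine libraries of 72 h left out gave 5031, 4429 and 4930 calls at 120 h (2570; 789 to 4940 with each library left out) and 3021, 3010 and 3006 for the effect at 120 against 6 h (953; 589 with no filter, 225 to 3005). At 72 h (353) there were 80 with sample weights, 18 with the libraries of the comparison alone, 2917 with all DMSO libraries as control and 137 to 4756 with each library left out. At 6 h (0) there were 3 without a trend, 3 with the libraries of the comparison alone and 0 to 3. The effect at 120 against 72 h (0) gave 6 with no filter, 1 without a trend and 0 to 2915. DMSO at 120 against 6 h (0) gave 1 with no filter, 1 without a trend, 3 with sample weights, 8 with its own libraries and 0 to 12, and DMSO at 72 against 6 h (0) gave 116, 1 and 1 with no filter, no trend and sample weights. Decitabine at 120 against 72 h (21) gave 51 with a pseudocount of 5, 227 with no filter, 38 with quantile normalisation, 9 with equal totals, 0 with sample weights, 0 with its own libraries and 0 to 5192 with each library left out. Differences between replicates correlated across genes by -0.078 to 0.124 between groups, which cannot settle whether replicate numbers pair the libraries. A replicate block gave 215 calls over all genes at 72 h and 1 for decitabine at 120 against 72 h, left PLK1 as the 1 member called at 120 h and changed no other member call. Depth limits low members such as CDC25C, and 2 libraries a group with 1 in DMSO at 72 h limit the rest.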
